A study of Mus musculus with 5 samples.

Results

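The regions described here are the promoter regions with a window of a DNaseI hypersensitive site (DHS) in macrophages (MAC) and none in the lists of 4 earlier stages of blood development, although 27.8% of the deposited MAC intervals still touched an interval of those stages. Undifferentiated ES cells were not analysed here. To compare the 5 lists, each site was replaced by the 500 bp centred on it. Chaining those windows that shared 25% or more of their length, whatever the stage, gave 68846 merged regions. A region was kept if it held a MAC window and no window of mesoderm (MES), hemangioblasts (HB), hemogenic endothelium (HE) or hematopoietic progenitors (HP), and if its centre lay within 2 kb of a RefSeq protein-coding transcription start site (TSS). This left 1391 regions, 2.02% of all merged regions, 6.51% of the 21375 MAC-only regions and 13.4% of the 10379 promoter regions open in MAC. The members were chosen by the presence of a MAC site and the absence of a site in the other lists, so that pattern is a description and not a finding, and the same holds for the distance limit.

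DNaseI-seq maps open chromatin by its sensitivity to the nuclease DNase I. All cells were derived in culture from 1 mouse ES line of strain 129 with a GFP reporter of Brachyury (Bry), which was kept on embryonic fibroblasts before differentiation. MES were Bry.GFP+ and FLK1-, HB were Bry.GFP+ and FLK1+, HE were Bry.GFP+, Tie2+, cKit+ and CD41-, HP were CD41+, and MAC were CD11b+ cells grown from CD41+ cells. There was 1 list per stage, the MAC label naming Rep1 and Rep2 together. Whether the MAC list pools these replicates or holds their overlap is not given in the sources used here, and it bears on how many MAC sites were listed. Thus no replicate error can be given and no difference between stages was tested. The lists held from 17734 sites (HP) to 37456 sites (MAC), with median widths from 600 bp (MAC) to 1200 bp (HE). They give positions without counts, so the depth behind a site cannot be read from them, and the aligned read totals the study gives were not used here. The absence of a site means only that none was listed. Intervals beside a share are 95% Wilson intervals, which cover counting error only.

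Macrophages are phagocytes that sense microbes, engulf particles and present antigen. Their identity depends on the ETS factor PU.1, which binds purine-rich DNA with a GGAA core and opens chromatin together with C/EBP, AP1, RUNX and IRF factors. Many myeloid genes have promoters with neither a CpG island nor a TATA box, in which PU.1 sites lie close to the TSS. Promoters of genes that all cells use mostly lie in CpG islands and are open in most cell types.

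The label was checked against markers. Of 12 macrophage markers, 11 had a promoter region open in MAC and 9 had a member: Csf1r, Adgre1, Itgam, Cd14, Mrc1, Msr1, Lyz2, Mpeg1 and Fcgr1. Of all protein-coding genes, 50.3% had a promoter region open in MAC and 6.33% had a member. Cd68 and Mertk had promoter regions in all 5 stages, and for Aif1 none was listed in any stage. None of 3 neutrophil markers (Mpo, Elane, Ly6g), the lymphoid markers Cd3e and Ncr1 and 3 fibroblast markers (Col1a1, Col3a1, Pdgfrb) had a promoter region open in MAC. Other genes of these cell types did, namely S100a8, Camp, Cxcr2 and Mmp8 of 20 neutrophil genes, Cd2, Cd5, Cd28, Il7r and Lck among 8 of 31 lymphoid genes, and Tagln, Vim and Fn1 of 20 fibroblast genes, and their part in the MAC list was not tested. Among the other markers, Kdr and Klf1 had promoter regions in all 5 stages, and the mesoderm gene Mixl1 had a member beside promoter regions open in MES, HB and HE.

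To show what such a promoter looks like, 10 sequences are printed from the RefSeq assembly GRCm38.p6 (mm10), each the 200 bp upstream of the TSS in the direction of the gene. They are the earliest 10, in the order of the gene lists, among members that covered a TSS of a macrophage gene, held the PU.1 core letters GAGGAA (or TTCCTC, their reverse) within 150 bp of it and in the printed stretch, and had no annotated exon in that stretch. Capitals mark the PU.1 core. Since the letters chose them, their presence here supports nothing, and the share over all members is given further on. Irf5, a regulator of inflammatory cytokines, lies on the plus strand (chr6:29529082-29529281) with the core 43 bp before the TSS, and Irf4, a related factor of alternatively activated macrophages, on the plus strand (chr13:30749033-30749232) with the core 19 bp before it and the TATA letters TATAAA upstream of the core.
Irf5: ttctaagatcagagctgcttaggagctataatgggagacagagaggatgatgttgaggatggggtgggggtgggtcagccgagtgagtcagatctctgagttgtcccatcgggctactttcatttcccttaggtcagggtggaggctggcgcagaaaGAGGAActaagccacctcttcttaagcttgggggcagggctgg
Irf4: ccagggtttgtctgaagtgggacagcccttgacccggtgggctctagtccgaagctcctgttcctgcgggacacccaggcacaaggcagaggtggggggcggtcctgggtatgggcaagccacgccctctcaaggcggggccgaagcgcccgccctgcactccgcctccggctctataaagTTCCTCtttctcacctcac
Clec7a, the beta-glucan receptor dectin-1, lies on the minus strand (chr6:129472786-129472985), as does its neighbour Olr1, a receptor of oxidised low-density lipoprotein (chr6:129507166-129507365). Syk, the kinase that signals below Fc and lectin receptors, lies on the plus strand (chr13:52596682-52596881).
Clec7a: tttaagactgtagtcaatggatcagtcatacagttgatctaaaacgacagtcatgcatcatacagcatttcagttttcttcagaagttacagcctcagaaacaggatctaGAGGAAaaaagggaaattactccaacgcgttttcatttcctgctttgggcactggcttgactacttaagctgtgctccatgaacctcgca
Olr1: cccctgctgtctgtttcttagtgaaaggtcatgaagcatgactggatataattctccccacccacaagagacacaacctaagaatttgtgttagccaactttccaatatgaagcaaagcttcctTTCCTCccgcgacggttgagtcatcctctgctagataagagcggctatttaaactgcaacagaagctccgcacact
Syk: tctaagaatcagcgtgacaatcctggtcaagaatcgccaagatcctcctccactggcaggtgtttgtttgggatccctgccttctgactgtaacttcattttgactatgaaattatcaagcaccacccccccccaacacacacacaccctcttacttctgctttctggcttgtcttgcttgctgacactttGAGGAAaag
The remaining 5 belong to toll-like receptors, which sense microbial lipids, nucleic acids and proteins. Tlr1 lies on the minus strand (chr5:64933559-64933758), and Tlr4 (chr4:66827351-66827550), Tlr9 (chr9:106222398-106222597), Tlr11 (chr14:50357714-50357913) and Tlr13 (chrX:106143075-106143274) on the plus strand. The core of Tlr1 and Tlr11 continues into the longer PU.1 letters GAGGAAGT.
Tlr1: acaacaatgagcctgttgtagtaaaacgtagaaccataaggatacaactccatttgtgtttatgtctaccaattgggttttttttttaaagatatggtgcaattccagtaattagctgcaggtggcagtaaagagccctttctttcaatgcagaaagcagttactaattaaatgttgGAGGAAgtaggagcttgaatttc
Tlr4: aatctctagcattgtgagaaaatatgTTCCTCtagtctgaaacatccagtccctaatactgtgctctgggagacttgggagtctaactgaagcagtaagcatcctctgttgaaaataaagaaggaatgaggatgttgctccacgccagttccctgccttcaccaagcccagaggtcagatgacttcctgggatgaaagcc
Tlr9: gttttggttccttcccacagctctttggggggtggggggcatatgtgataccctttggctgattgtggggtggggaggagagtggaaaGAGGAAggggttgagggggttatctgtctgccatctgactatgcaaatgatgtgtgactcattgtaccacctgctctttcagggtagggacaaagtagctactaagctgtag
Tlr11: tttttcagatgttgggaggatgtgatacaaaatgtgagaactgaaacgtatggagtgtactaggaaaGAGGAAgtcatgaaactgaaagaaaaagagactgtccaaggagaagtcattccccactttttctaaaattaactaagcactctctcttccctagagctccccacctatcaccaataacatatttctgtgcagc
Tlr13: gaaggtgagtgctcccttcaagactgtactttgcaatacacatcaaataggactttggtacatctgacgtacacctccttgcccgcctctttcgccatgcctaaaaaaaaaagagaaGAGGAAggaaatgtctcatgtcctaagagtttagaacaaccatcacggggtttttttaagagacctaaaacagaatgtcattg
In these 10 stretches the core began between 9 bp (Syk) and 174 bp (Tlr4) before the TSS. At Tlr4 the core that met the limit of 150 bp lies inside the gene and is not printed.

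The members reached 1330 of 21000 protein-coding genes (6.33%), and they fell into 2 kinds by what else was listed at the gene. For 410 genes (1.95% of all genes, and 30.8% of the member genes, interval 28.4 to 33.4) no promoter region was open in MES, HB, HE or HP within 2 kb of any TSS. Their 437 regions are called sole promoter regions below. The other 920 genes had a promoter region in an earlier stage as well, and the 954 members at these genes are called further promoter regions. Of those 920 genes, 858 had an earlier promoter region in HE, 775 in HB, 752 in MES and 673 in HP. In 373 of them a promoter region was open in all 5 stages, and in 406 (44.1%) none of the earlier promoter regions was open in MAC. Sole promoter regions made up 31.4% of the members (interval 29.0 to 33.9). Which kind was the larger depended on the promoter reach, since with TSS within 500 bp 334 of 503 member genes (66.4%) were sole. The sole share of the member genes was 46.3% with sites no narrower than the median of their list, and 43.2% with deposited intervals in place of windows. The number of genes with a sole promoter region was 410 for a merging overlap of 250 bp and 411 for 1 bp. The number of member genes moved from 1542 to 1210. That overlap could hardly change the sole genes, which by definition have no earlier region centred within 2 kb. Other settings moved their number. It was 346 with sites no narrower than the median of their list and 238 with every list cut to as many sites as HP has. Without the HE list it was 577, and with TSS of all annotated genes 1152.

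Sole promoter regions covered the TSS more often than further promoter regions, and both kinds also lay beside it. The deposited MAC interval covered the nearest TSS in 225 of 437 sole regions (51.5%, interval 46.8 to 56.1) and in 219 of 954 further regions (23.0%, interval 20.4 to 25.7). Over all members the share was 31.9%, against 89.6% of the 8988 promoter regions open in MAC and in another stage. This share depends on the reach of 2 kb, and was 58.9% for a reach of 1000 bp and 83.2% for 500 bp. It was 52.5% when every list was cut to sites no narrower than its median, which left 734 members. The median distance of the centre from the TSS was 284 bp in sole and 1045.5 bp in further regions. Within 250 bp of the TSS lay 48.1% of the sole and 18.4% of the further regions, and 750 bp or more away lay 35.9% and 65.5%. The 250 bp just upstream of the TSS held the most sole regions, 145, against 65 in the 250 bp downstream, whereas promoter regions open in all 5 stages numbered 2661 upstream and 3692 downstream. Further regions also had their fullest bin in the 250 bp just upstream, with 104, were fewest from 250 to 500 bp downstream (26), and numbered 87 from 1000 to 1250 bp downstream. The rule itself has a part in this shape, because a MAC window that shares 25% or more with the window of an earlier promoter is merged with it and cannot be a member.

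**Figure D1:**
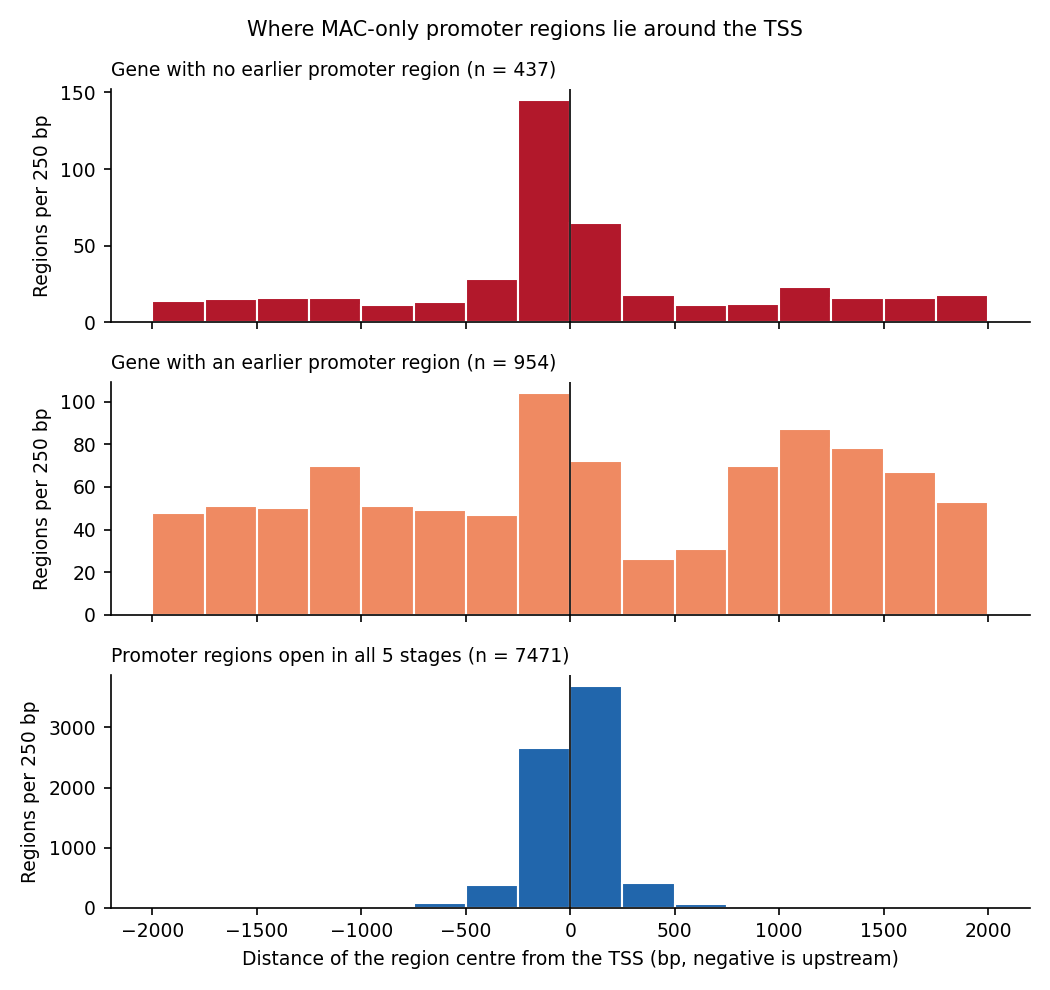
Number of regions in each 250 bp bin of distance between the region centre and the TSS, for sole promoter regions (437), further promoter regions (954) and promoter regions open in all 5 stages (7471). Sole regions peak just upstream of the TSS with 145 regions in the bin, further regions also fill the flanks on both sides, and most regions of all 5 stages lie within 250 bp of the TSS.

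By gene structure, 556 members had their centre outside genes, 659 (47.4%) in an intron, 8.63% in a 5' untranslated exon, 2.95% in a coding exon and 1.08% in a 3' untranslated exon. Sole regions were outside genes in 52.9% and in an intron in 30.9% of cases, and further regions in 34.1% and 54.9%. Of the members, 50 lay within reach of more than 1 gene.

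The MAC sites of the members were narrow. Their median width was 400 bp (quartiles 300 and 700, range 100 to 1900), with 500 bp in sole and 400 bp in further regions, against 900 bp in promoter regions open in MAC and another stage and 500 bp in MAC-only regions beyond 2 kb from a TSS. The part of interval width in the lack of shared windows was not tested. Although no window was shared, the deposited MAC interval itself overlapped a deposited interval of another stage in 387 members (27.8%, interval 25.5 to 30.2). This concerned 386 of the 954 further regions and 1 of the 437 sole regions. The definition of sole regions nearly sets this contrast, since no earlier region is centred within 2 kb of a TSS of their genes. Most of the overlap came from HE, the list with the widest sites, which 362 members overlapped, 190 of them with no other stage. HB, MES and HP intervals overlapped 161, 142 and 134 members. Among the 134 members with a MAC site of 1000 bp or more, 69 overlapped another stage. Members of 300 bp or less did so in 120 of 487 cases.

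The 10 members with the widest MAC site were all further regions whose interval overlapped another stage. They belong to Cluh, Ptp4a2 and 6430548M08Rik (1900 bp each), Lmnb1 (1800 bp), and Fam117b, Eea1, Klc4, Spaca9, Tpst2 and C130050O18Rik (1700 bp each), none of which is in a macrophage list. At Cluh, which encodes an mRNA-binding protein of mitochondrial biogenesis, the MAC interval ran from -1737 bp to 162 bp relative to the TSS, and the MES, HB, HE and HP intervals covered the same TSS. Of the 10, 8 overlapped intervals of all 4 earlier stages, and Tpst2 and C130050O18Rik those of HE alone. At these genes the MAC list thus held a site in contact with an earlier promoter, and only its middle was set apart. Merging the deposited intervals in place of the windows gave 1004 members in place of 1391, with 412 genes of the sole kind.

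**Figure D2:**
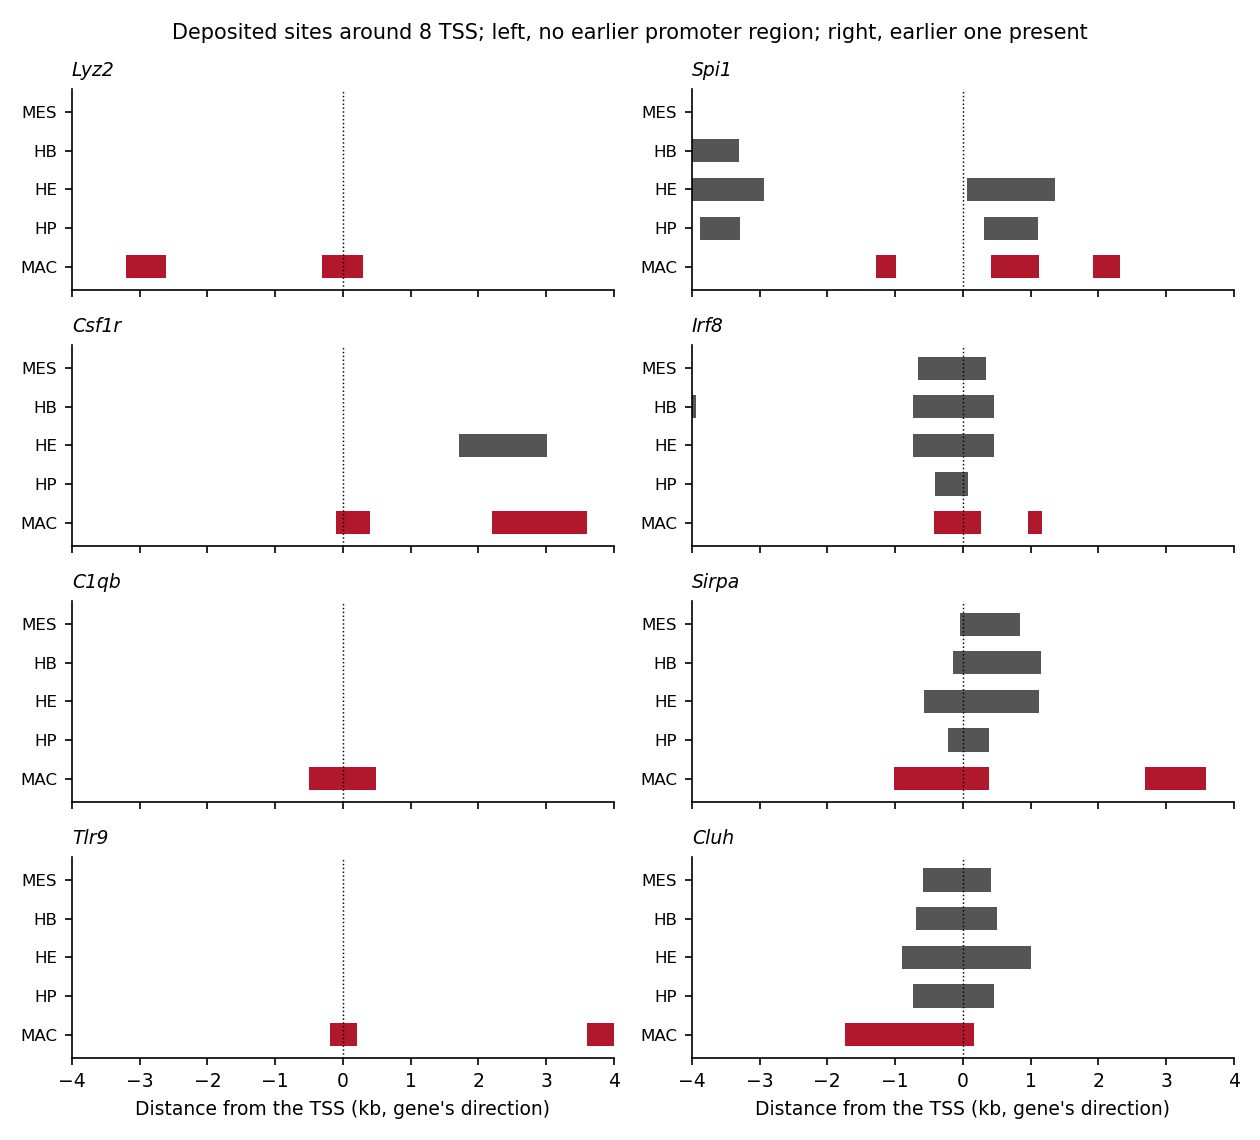
Deposited DHS intervals of the 5 stages within 4 kb of the TSS of 8 genes, in the direction of the gene, MAC in red. On the left the MAC site at the TSS of Lyz2, Csf1r, C1qb and Tlr9 has no site of another stage beneath it, and on the right MAC sites of Spi1 and Irf8 lie beside a promoter listed earlier, while those of Sirpa and Cluh overlap it off centre.

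At the limits of the rule, 49 members had their centre in the last 100 bp before the limit of 2 kb from the TSS, and 62 MAC-only regions lay up to 100 bp beyond it and were not members. The MAC window of 24 members overlapped the window of another stage by an amount less than 25 bp short of the merging limit. At the limit or less than 25 bp above it lay 36 MAC windows in promoter regions, which were merged and lost. In all, 126 members had some overlap of this kind below the limit.

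The sequence of the members was poor in CpG. In the central 500 bp the median GC share was 49.4% and the median ratio of observed to expected CpG 0.250, against 64.6% and 0.823 in promoter regions open in all 5 stages. CpG-rich regions were those in which the GC share reached 0.5 and the ratio reached 0.6. That held for 14 of the 437 sole regions (3.20%, interval 1.92 to 5.31), for 134 of the 954 further regions (interval 12.0% to 16.4%), for 41.4% of the 1913 promoter regions open in HE only and for 88.6% of those open in all 5 stages. Of sole regions that covered the TSS, 9 of 225 were CpG-rich by this measure. Further regions divided by overlap, with 28.2% CpG-rich where the MAC interval overlapped another stage and 4.40% where it stood apart. MAC-only regions beyond 2 kb had 0.205%.

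The letters of macrophage factors were more frequent in the members than in other promoters. Matches were counted on both strands in the central 500 bp, by exact letters. The PU.1 core GAGGAA was present in 59.5% of the members (interval 56.9 to 62.0), in 37.3% of promoter regions open in all 5 stages (36.2 to 38.4), in 43.5% of those open in HE only (41.3 to 45.7) and in 59.4% of MAC-only regions beyond 2 kb (58.7 to 60.0). Sole regions had it in 64.8% and further regions in 57.0% of cases, with intervals of 60.2 to 69.1 and 53.9 to 60.1. Further regions overlapping another stage had the core in 51.04% of cases (46.06 to 55.99). In further regions standing apart the share was 61.09% (57.02 to 65.01), with an interval that overlapped that of sole regions. The longer PU.1 letters GAGGAAGT, which contain the core, were found in 13.0% of the members and 3.68% of the promoter regions open in all 5 stages.

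Promoters of all 5 stages also had lower shares of the C/EBP letters TTGCNNAA (389 members, and 10.4% of the promoters of all 5 stages), the AP1 letters TGANTCA (24.7% against 5.51%), the RUNX letters TGTGGT (35.9% against 16.7%), the composite PU.1 and IRF letters, GGAA and GAAA set 2 bases apart (8.27% against 2.85%), and the IRF letters, GAAA and GAAA set 2 bases apart (9.42% against 3.43%). The composite can share its GGAA with the PU.1 core. Against MAC-only regions beyond 2 kb the members had a lower share of AP1 letters, which were found there in 34.1% (interval 33.5 to 34.8). RUNX letters stood at 41.6% there (40.9 to 42.2), with 33.4 to 38.4 as the interval in all members. Sole regions had RUNX letters in 41.65% of cases and further regions standing apart in 39.1% (35.2 to 43.2). Further regions overlapping another stage had them in 24.6%. C/EBP letters (30.4%) and the composite letters (9.81%) also had higher shares in MAC-only regions beyond 2 kb than in the members, with intervals that overlapped. GATA letters, AGATAA, stood at 16.8% in the members and 5.77% in promoters of all 5 stages, and TEAD letters, CATTCC, at 21.4% and 15.6%, so letters of factors not tied to macrophages were also more frequent. The composition of the sequence differs between these sets, and its part in the motif shares was not tested. MAC-only regions beyond 2 kb, with a median GC share of 46.4%, are the set closest in composition.

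Letters of CpG promoters went the other way. The SP and KLF letters GGGCGG were found in 22.5% of the members and 83.4% of the promoter regions open in all 5 stages, the NRF1 letters GCGCATGC in 0.647% and 8.47%, and the ETS letters CCGGAAG in 3.67% and 28.7%. Sole regions had GGGCGG in 16.0% of cases and further regions in 25.5%. This order came from the further regions overlapping another stage, which had GGGCGG in 41.97% of cases. Further regions standing apart had it in 14.26% (interval 11.62 to 17.38), near the share of sole regions (12.88 to 19.75). The letters CCAAT differed less, at 42.6% and 49.1%, and so did the CTCF letters (CCA, AGG and GGC set 2 bases and 1 base apart), at 1.87% and 2.33%. NF-kB letters, GGGA and TTTCC set 1 base apart, were rare in the members (14 regions, 1.01%) and in promoters of all 5 stages (0.589%). The letters TCANGTGA of MITF and TFE factors (7.91% and 6.17%) and the letters AGGTCA of LXR and PPAR (30.1% and 17.3%) had higher shares in the members, with intervals that overlapped for the former.

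**Figure D3:**
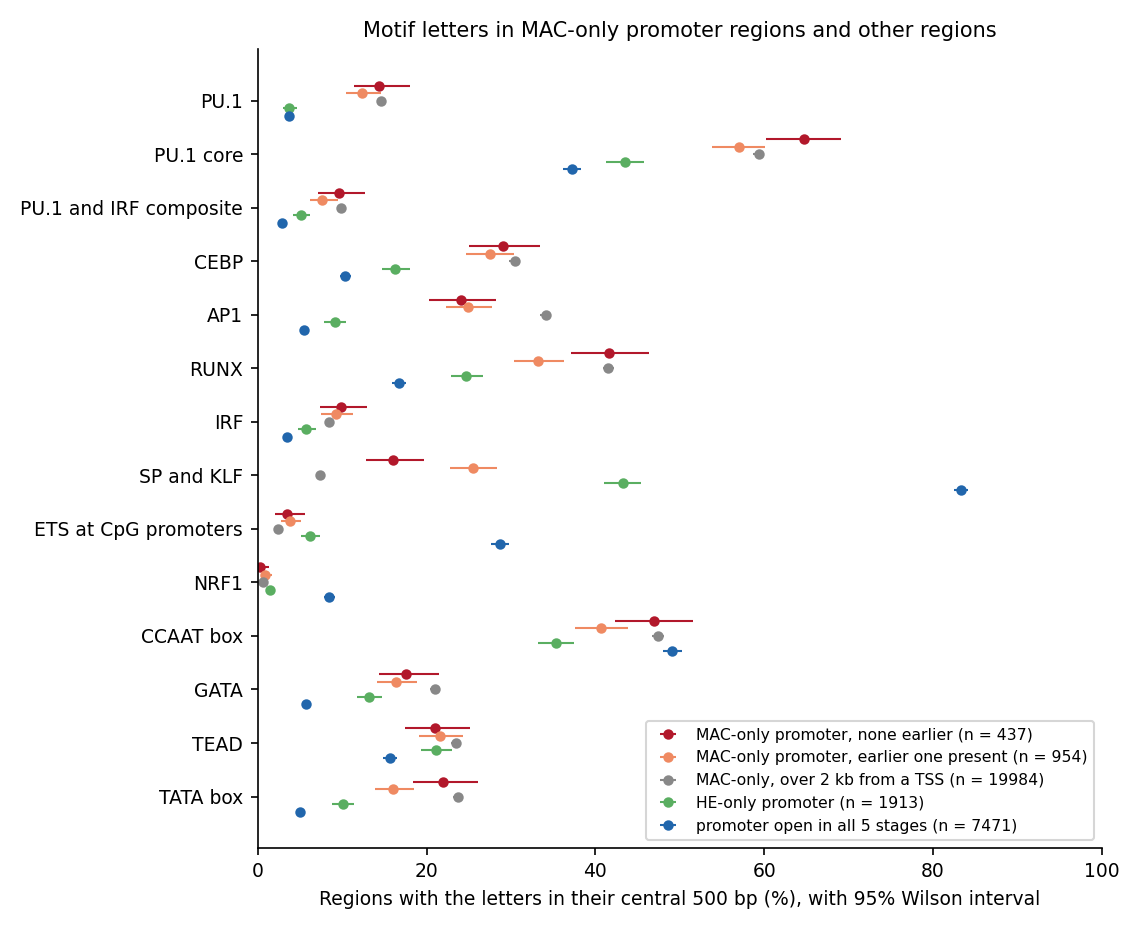
Share of regions with each set of letters in the central 500 bp, with 95% Wilson intervals, in sole and further promoter regions, MAC-only regions over 2 kb from a TSS, HE-only promoter regions and promoter regions open in all 5 stages. The members lie near the distal MAC-only regions for PU.1, CEBP and IRF letters and far below the promoters of all 5 stages for SP and KLF letters (22.5% of all members against 83.4%).

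Around the TSS itself the PU.1 core was most frequent from just upstream to just downstream in sole regions, but not in all sets. Among the 225 sole regions that covered the TSS, 38.2% had the core in the 150 bp before it (interval 32.1 to 44.7), against 15.1% in the 150 bp from 500 to 350 bp upstream (11.0 to 20.4). The 50 bp after the TSS held it in 31 of these regions (13.8%), more than any other 50 bp except those just before the TSS (19.1%). In the 219 further regions that covered the TSS the shares were 26.9% and 16.4%, and in the 7005 such regions open in all 5 stages 12.0% and 13.3%. GGGCGG showed the reverse order in the 150 bp before the TSS, with 11.1% of sole, 39.7% of further and 61.1% of the regions of all 5 stages. C/EBP letters were found there in 12.4% of sole regions, 6.39% of further regions and 3.65% of those open in all 5 stages. In the further regions this was below their own share from 500 to 350 bp upstream, 7.76%. The TATA letters TATAAA, on the strand of the gene from 40 to 20 bp before the TSS, were rare in all 3 sets, with 12 of 225 sole regions (5.33%, interval 3.08 to 9.09), 3 of 219 further regions and 0.642% of the regions of all 5 stages.

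**Figure D4:**
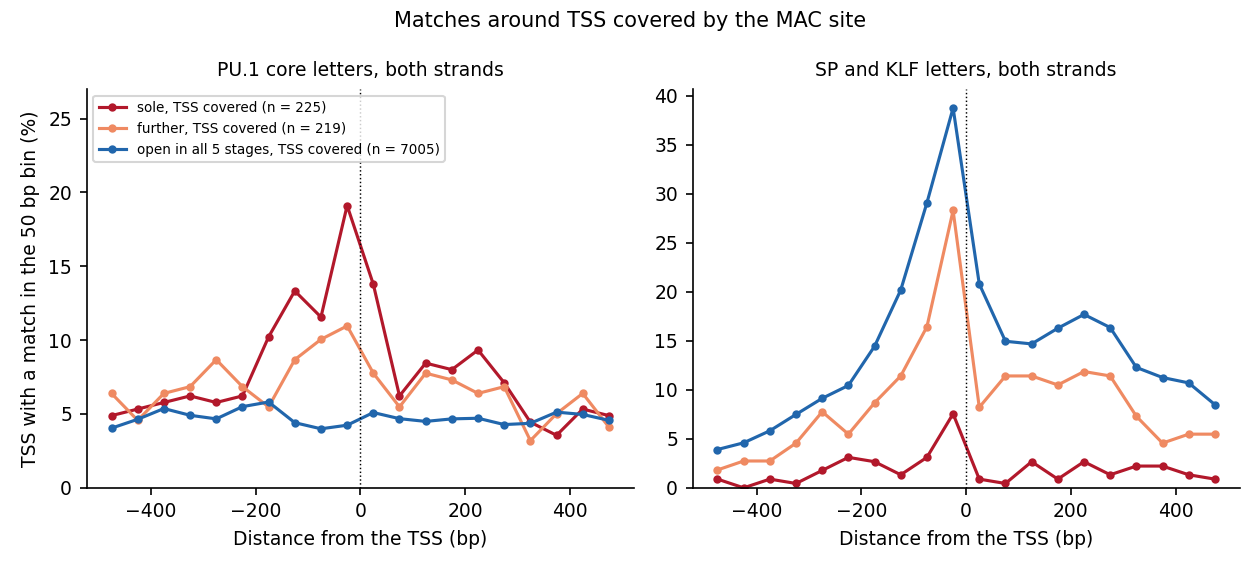
Share of TSS with a match to the PU.1 core letters (left) and the SP and KLF letters (right) in bins of 50 bp around TSS covered by the MAC site. In sole regions the PU.1 core rises towards the TSS, with 38.2% in the 150 bp before it, whereas regions open in all 5 stages stay flat for PU.1 and peak for SP and KLF.

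To see which genes the members belong to, 23 gene lists were used, 14 of macrophage function and 9 of other cells or housekeeping. Of 393 genes of the macrophage lists found in the annotation, 161 had a member (41.0%), 108 of the sole and 53 of the further kind, against 6.33% and 1.95% of all genes for any member and for the sole kind. No promoter region open in MAC was listed for 49.7% of all genes, against which the counts of such genes below can be read. Of 189 genes of the other lists, 18 had a member (9.52%), 8 of them sole. Some genes are in lists of both kinds and count in each, among them Camp, Cxcr2, Pecam1 and Pf4, and neutrophil genes in the killing list. The lists were chosen with results of these data known, so the counts describe them and were not tested.

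**Figure D5:**
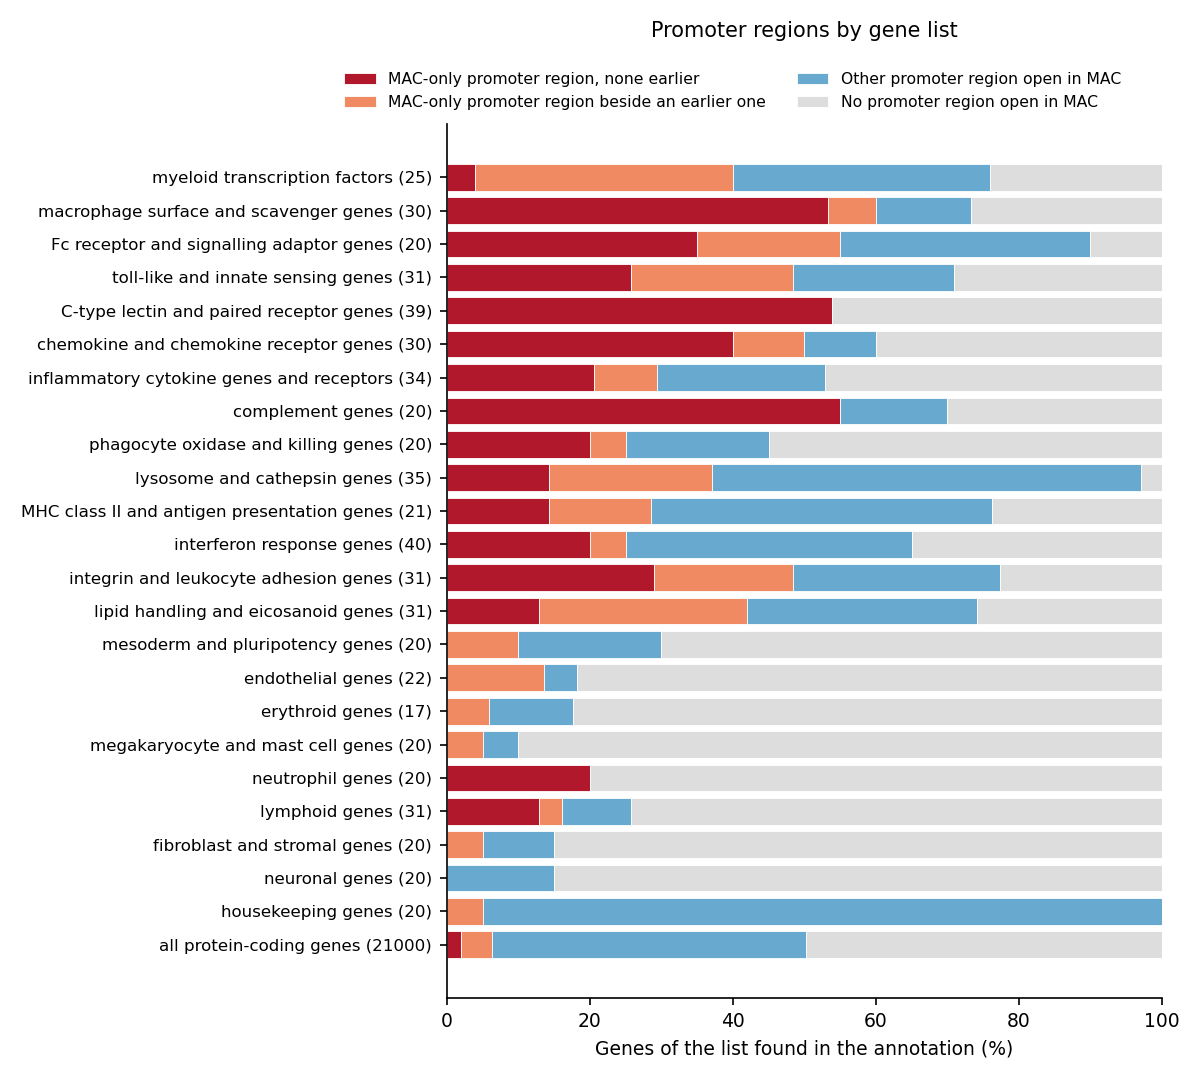
Genes of each list, in percent of those found (number in brackets), by the promoter regions listed for them. Sole promoter regions (dark red) were found for 16 of 30 surface, 21 of 39 lectin and 11 of 20 complement genes, against 1.95% of all protein-coding genes, while myeloid transcription factors have 1 sole gene and 9 further ones.

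In the list of macrophage surface and scavenger genes, 18 of 30 had a member, 16 of them sole, while 4 had another promoter region open in MAC and 8 had none. Lyz2, which encodes lysozyme, had a MAC site of 600 bp centred 9 bp before its TSS (chr10:117281981-117282580). Adgre1, which encodes the macrophage antigen F4/80, had a site of 700 bp (chr17:57358288-57358987), and Msr1, a scavenger receptor, a site of 600 bp (chr8:39642426-39643025), both centred 48 bp before the TSS. The chemokine receptor gene Cx3cr1 had a site of 300 bp centred 55 bp before it (chr9:120068201-120068500). The nearest region open at another stage was 376867 bp from Msr1 and 57852 bp from Lyz2, but 2212 bp from the member of Csf1r, the receptor of macrophage colony-stimulating factor. The HE interval nearest to that member began 1712 bp inside Csf1r, and Csf1r was 1 of 18 sole genes where the interval of an earlier stage reached within 2 kb of a TSS although its region was centred further away. The 2 further genes of this list were Cd14 and Sirpa. At Itgam, which encodes the CD11b used to sort these cells, the member lay 870 bp inside the gene and did not cover the TSS. Marco, Cd36, Cd163, Timd4, Lyz1 and Aif1 had no promoter region in any stage.

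In the Fc receptor and adaptor list 11 of 20 genes had a member, 7 of them sole. The inhibitory Fc receptor gene Fcgr2b had a site of 300 bp centred 6 bp inside the gene (chr1:170975915-170976214), and Pik3cg, a catalytic subunit of phosphoinositide 3-kinase, 1 of 1000 bp centred 17 bp before its TSS. Fcgr3, an activating Fc receptor, had 2 members and an earlier promoter region in HB only, and Syk had 2 members and earlier promoter regions in MES and HE. The adaptor genes Tyrobp and Fcer1g, which carry the signal of many of these receptors, had sole sites of 1200 and 700 bp.

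The C-type lectin and paired receptor list held no further region at all, with 21 of 39 genes sole and the remaining 18 without any promoter region in any stage. Cd300lb, Clec4a3, Ms4a7 and Trem1 had sites of 600, 700, 600 and 400 bp centred 4 bp inside the gene and 15, 17 and 51 bp before the TSS. These receptors bind sugars, lipids or other ligands, and their genes lie in arrays. The authors kept uniquely aligned reads, so sites could be missing at near-identical copies.

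Of 31 genes of toll-like and innate sensing, 15 had a member, 8 of the sole kind. Tlr9, the receptor of unmethylated DNA, had a sole site of 400 bp centred 3 bp inside the gene (chr9:106222401-106222800). Nlrc4, an inflammasome sensor, and Cd180, a relative of Tlr4, had sole sites of 500 and 200 bp centred 30 and 35 bp before the TSS. At Nlrp3, which forms the best known inflammasome, the site of 700 bp covered the TSS, and a promoter region open in HE lay 1203 bp away. Tlr1, Tlr6, Tlr11 and Tlr13 were also sole, while Tlr2, Tlr4, Tlr5 and Tlr7 had promoter regions in earlier stages. The adaptor genes Myd88 and Ticam1 had promoter regions in all 5 stages and no member, as had the kinase gene Irak4, while that of Irak3 was listed in MES, HB and HE and not in MAC.

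Of 30 chemokine and chemokine receptor genes, 15 had a member, 12 of them sole, and 12 others had no promoter region open in MAC. Ccl2, which attracts monocytes, had a site of 800 bp centred 10 bp before the TSS (chr11:82035167-82035966), and Ccl4, Cx3cr1 and Ccl22 had sites of 600, 300 and 600 bp centred 17, 55 and 58 bp before it. Of 34 cytokine genes and receptors, 10 had a member and 7 were sole, and 16 had no promoter region open in MAC. They included Tnf, the early inflammatory cytokine, with a site of 400 bp centred 19 bp inside the gene (chr17:35201788-35202187), Il1rn, the antagonist of interleukin 1 (300 bp), Tnfsf14 (500 bp) and Csf2rb, the shared receptor chain of GM-CSF and interleukins (300 bp). No promoter region was listed in any stage for Il1a, Il1b, Il6, Il12a or Ifnb1.

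Complement genes had the largest sole share of any list, with 11 of 20 genes, but the lectin (21 of 39) and surface lists (16 of 30) were close. Like the lectin list, the complement list had no further region. The 3 chains of C1q, the recognition molecule of the classical pathway, lie next to each other on chromosome 4 and each had a site at its TSS: C1qb 1000 bp wide and centred 7 bp before it (chr4:136885707-136886706), C1qa 800 bp and 37 bp inside the gene, and C1qc 600 bp and 93 bp before it. C3, the central component, and the receptor genes C5ar1 and C5ar2 were sole as well.

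Over all member genes 30.8% were sole, against which the small counts of the killing and lysosome lists can be read. Of 20 phagocyte oxidase and killing genes, 5 had a member and 4 were sole, among them Ncf4, an oxidase subunit (1000 bp), and Slc11a1, a metal transporter of the phagosome (900 bp). Rac2, a small GTPase that activates the oxidase, had a further region of 700 bp beside promoter regions in HE and HP. Cybb and Ncf1 had no promoter region in any stage. Of 35 lysosome and cathepsin genes, 13 had a member, 8 of them further, and 21 others had a different promoter region open in MAC, so that 1 gene (Ctsh) had none open in MAC. The sole genes were Atp6v0d2, a subunit of the proton pump, Ctss, a cathepsin of antigen presentation, Gpnmb, Laptm5 and Ctsk, with sites of 700, 500, 1100, 1400 and 500 bp. Ctsa was further, with a site of 200 bp whose interval overlapped MES, HB and HE. Promoter regions in all 5 stages went with either outcome. Ctsd, Lamp1, Lamp2 and Npc1 had them and no member. The 8 further genes, Ctsa, Ctsz, Hexa, Lipa, Psap, Gusb, Tfeb and Acp5, had them as well as a member.

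Antigen presentation and interferon response had the lowest shares of members among the macrophage lists together with the killing genes. The cytokine list, with 10 of 34 genes, was close. Of 21 genes of MHC class II and antigen presentation, 6 had a member and 3 were sole: Cd86 and Cd80, which costimulate T cells, and Ciita, the coactivator of class II genes. Cd86 had a site of 400 bp centred 69 bp inside the gene. H2-DMa and Cd74 had further regions of 400 and 200 bp. Of 40 interferon response genes, 10 had a member and 8 were sole, including Ifit1 (700 bp), Oas2 (500 bp), Rsad2 (500 bp) and Oas3 (400 bp), all of which had a site over the TSS, with the centre at most 87 bp away. These encode antiviral proteins. The transcription factor genes Stat2, Irf1 and Irf9 of this list had promoter regions in all 5 stages and no member, and Irf7 had a promoter region in HE only.

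Adhesion genes were mixed. Of 31 integrin and leukocyte adhesion genes, 15 had a member and 9 were sole, including Selplg, the ligand of P-selectin (500 bp, centred 5 bp inside the gene), Cd53, a tetraspanin of leukocytes (600 bp), and Evi2a (600 bp). Itgb2, the shared chain of the leukocyte integrins, had 2 members, and promoter regions in HE and HP. Of its partners, Itgam, Itgal and Itgax were sole, and Itgad had no promoter region in any stage. Itga5, Itgav and Itgb1, which many cells use, had no member. Of 31 genes of lipid handling and eicosanoids, 13 had a member, 4 of them sole: Mgll, Pla2g4a, Hpgds and Tbxas1, enzymes of monoacylglycerol breakdown, arachidonic acid release and prostaglandin or thromboxane synthesis. Mgll was CpG-rich, with a site of 600 bp, and Pla2g4a had a site of 600 bp centred 75 bp inside the gene. Lpl and Pparg had further regions of 400 bp over a TSS that overlapped HE.

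Of 25 myeloid transcription factors 10 had a member, and 9 of these were of the further kind. Over all genes, 920 of 1330 member genes were further. The lipid list (9 of 13) and the lysosome list (8 of 13) lay near that share. Among the transcription factors Irf5 was the exception, with a sole site of 1000 bp. Spi1, which encodes PU.1, had its member 1130 bp upstream of the TSS (chr2:91081125-91081424, 300 bp), while a region inside the gene was open in HE, HP and MAC. Irf8, which drives monocyte development, had a member of 200 bp centred 1068 bp inside the gene, and a promoter listed in all 5 stages. Pparg and Runx1 had members of 400 and 800 bp that covered a TSS, of which that of Runx1 overlapped no site of another stage, and its gene had promoter regions in MES, HB, HE and HP. Irf4 had a site of 800 bp that overlapped HE. Ikzf1 had 3 members and an earlier promoter region in HP only. Cebpa, Maf, Klf4 and Egr2 had promoter regions in all 5 stages and no member.

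Among the lists of other cells, sole regions occurred in neutrophil and lymphoid genes only. Of 20 neutrophil genes 4 were sole: S100a8 (800 bp), Mmp8 (400 bp), Camp (300 bp) and Cxcr2 (700 bp). The remaining 16, which include Mpo, Elane, Prtn3, Ctsg, Ltf and Ly6g, had no promoter region open in MAC. Of 31 lymphoid genes 4 were sole, Cd5, Cd28, Cd2 and Il7r, with sites of 700, 800, 200 and 600 bp, and Lck was further. Cd3e, Cd79a and Pax5 had none. Mesoderm and pluripotency genes had 2 members in 20 genes (Mixl1 and Gsc), endothelial genes 3 in 22 (Flt4, Eng and Pecam1), erythroid genes 1 in 17 (Epor), megakaryocyte and mast cell genes 1 in 20 (Pf4), fibroblast genes 1 in 20 (Tagln) and housekeeping genes 1 in 20 (Reep5), all of them further. Neuronal genes had 0 of 20, with an interval up to 16.1%.

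Some members lay in runs, which are given as a description with no expected length. The longest run of members no more than 250 kb from the next had 12 members in 646.9 kb of chromosome 1 (chr1:170912515-171559364), with 6 of them sole, at the Fc receptor genes Fcgr2b, Fcgr3, Fcer1g and Fcrlb and their neighbours. The chemokine genes Ccl9, Ccl6, Ccl3 and Ccl4, with Wfdc17 and Wfdc21, formed a run of 8 on chromosome 11 that spanned 171.0 kb, all of them sole. The lectin genes Clec4a1, Clec4a3, Clec4a4, Clec4b1, Clec4a2, Clec4d and Clec4e, with Necap1, gave 8 members on chromosome 6, of which 7 were sole. The Cd300 genes on chromosome 11 gave 7, with 6 sole, and a run of 7 on chromosome 5 around Cmklr1, Selplg and Coro1c had 1 sole. In the order named, these 5 runs held 31, 7, 10, 14 and 8 coding genes. In all, 104 genes had 2 or more members and 7 had 3: Adcy7, Hk3, Ikzf1, Nfkbid, Pik3cd, Tmem268 and Tpd52. Of these, Hk3 and Tmem268 were sole. Among runs of sole regions, 6 lay in 280.6 kb of chromosome 17 at Dennd1c, Tnfsf14, C3, Vav1 and Adgre1, which are no gene family, and 5 lay in 299.4 kb of chromosome 1 at the interferon-inducible genes Ifi207, Ifi204, Ifi211 and Ifi205 and the neighbouring Olfr433. By chromosome, members ranged from 18 on X (4.04% of its promoter regions) to 134 on chromosome 11 (9.62%), and their share was highest on chromosome 1, at 11.1%. Over all chromosomes there were 1391 members among 16497 promoter regions.

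The genes with a sole promoter region were not without earlier sites. A region open in MES, HB, HE or HP lay within 50 kb of a TSS or in the gene body for 341 of the 410 genes (83.2%, interval 79.2 to 86.5), close to the 84.0% of all protein-coding genes, which include genes with an open promoter of their own, and above the 52.0% of the 6869 genes with no promoter region in any stage. HE had such a region for 75.9% of the sole genes, HB for 68.0%, MES for 63.4% and HP for 61.2%. Over all protein-coding genes the shares were higher in each stage and in the same order, at 81.1%, 78.1%, 77.0% and 72.0%. The regions may belong to neighbouring genes, and with a reach of 20 kb the share was 66.6%. At Lyz2 and Cd53 none was listed in any of the 4 stages, and at C1qb MES, HB and HE had a region.

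The members were accompanied by MAC-only regions further out. Within 50 kb of a TSS the sole genes had a median of 2 MAC-only regions beyond 2 kb from any TSS (quartiles 1 and 4), the further genes also 2 (quartiles 1 and 3), and all protein-coding genes 1 (quartiles 0 and 2). At least 1 such region was present for 81.5% of the sole genes, 83.8% of the further genes, 68.9% of the 9226 genes with another MAC promoter region and no member, and 54.7% of all genes. Lyz2 had 2, Csf1r 8, Mpeg1 8, Itgam 6, Ccl2 11 and C1qb 0.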

How the data were processed

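DNaseI-seq sites of 5 stages, 1 list each, were analysed. The authors trimmed adapters (CutAdapt), aligned to mm10 (Bowtie), kept uniquely aligned reads, dropped duplicates (Picard) and ran DFilter with 100 bp bins to obtain sites. The submitters' processing notes also name HOMER. Versions are not given in the sources used here. The deposited files hold only the chromosome, start and end of each site, so no depth or detection floor was computed, and the aligned read totals the study gives were not used here.

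Windows, merging and the promoter limit followed the rule in the text. TSS were the 25999 positions of curated RefSeq mRNAs of 21000 protein-coding genes on GRCm38.p6, whose chromosomes are those of mm10, and 0 deposited intervals ran past a chromosome end. Base composition and 18 fixed sets of motif letters were read in the central 500 bp. Shares have 95% Wilson intervals. No test was made, since each stage has 1 list.

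The members, gene lists and motif letters were chosen with earlier results of these data known. Genes were named by list: any with a member may be named, and values were given mainly for the 4 nearest to a TSS, sites over the TSS being taken before others. Other values, such as those of Csf1r, Itgam, Spi1 and Irf8, were added after they were seen. The 10 widest members, genes with 3 members and the 5 longest runs were also named. Values of some genes are not reported here. Genes named without a member were likewise chosen after their patterns were seen. Python 3.11 scripts (pandas, numpy, pysam) were tested on simulated sites and sequences. Alternatives were the merging rule, deposited intervals, narrower sites left out, the TSS set, the promoter reach, the CpG definition and the reach for earlier sites.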

Additional observations from a re-analysis of the deposited data

How the results depend on the processing

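No paired analysis was possible because each stage has 1 list. Of 9 results, the count of members and of their genes kept within 1.5 times under other merging rules and without the HE list, an alternative added after the data were seen. When each list was cut to sites no narrower than its median there were 734 regions and 748 genes, a sole share of 46.3%, TSS covered in 52.5%, CpG-rich 18.8%, a median width of 700 bp, the PU.1 core in 56.4% and an earlier site near 67.6% of the sole genes. With every list cut to as many sites as HP has, widest kept, these were 536, 548, 43.4%, 50.7%, 12.9%, 800 bp and 71.4%, the PU.1 core staying at 59.1%. With TSS of all annotated genes there were 2815 regions and 2769 genes, a sole share of 41.6%, TSS covered in 29.3%, CpG-rich 5.83%, deposited overlap 17.4% and an earlier site near 87.2%. A promoter reach of 1000 bp gave 754 regions, 742 genes, 45.1% sole, 58.9% covered, 15.6% CpG-rich and 33.0% overlap, and 500 bp gave 505, 503, 66.4%, 83.2%, 16.8% and 24.4%, with an earlier site near 86.5%. Merging at 250 bp gave 26.6% sole, 36.1% covered, 16.1% CpG-rich and 38.1% overlap, and at 1 bp 34.0% sole, 7.43% CpG-rich and 20.7% overlap. Deposited intervals gave 43.2% sole, 3.78% CpG-rich, 62.6% with the PU.1 core and, by construction, 0% overlap. Without the HE list the values were 37.0% sole, 35.1% covered, 12.8% CpG-rich, 17.2% overlap and 78.2% with an earlier site. The stricter CpG definition gave 8.41%, the PU.1 core in the central 200 bp 36.1%, and an earlier site was found within 20 kb for 66.6% and within 100 kb for 92.2%. The cause of these shifts was not tested. No depth was used, so an unlisted site cannot be told apart here from one missed in a shallower library.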
